A study of Mus musculus with 12 samples.

Results

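The genes described here encode Rab GTPases, small GTP-binding proteins that sit on membranes and direct vesicle traffic between them. They were taken by their annotated symbols (Rab, a number and at most 1 letter and 1 further number, without interacting proteins) from bead arrays of primary mouse B cells. Of 59 such genes on the array, with 112 probes, 45 had a detected probe, and these had 74 detected probes between them. They are 45 of the 10050 genes tested. The rule for members compared no groups, but arrays of 1 form alone could meet its detection limit. The family was chosen with earlier results of these data known.

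Rab proteins alternate between an active, GTP-bound state on a membrane and an inactive, GDP-bound state that a GDP dissociation inhibitor keeps in the cytosol. Guanine nucleotide exchange factors (GEFs) switch them on, GTPase-activating proteins (GAPs) switch them off, and effectors that bind the active form tether, move or fuse the vesicle. In B cells this machinery is known to carry antigen from the antigen receptor to the late endosomes where MHC class II molecules are loaded, to return receptors to the surface, and to serve secretion in cells that become antibody producers.

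The cells were B cells from the spleens of C57BL/6 mice aged 8 weeks that were heterozygous for an E2A (Tcf3) deletion, so that every group, the controls included, kept 1 endogenous allele. All cultures had received CD40L (200 ng/ml) and IL-4 (5 ng/ml) for 14 h, 2 rounds of retroviral infection of 12 h each with LPS (200 ng/ml), and another 22 h of culture. The retroviruses expressed E12, the E-box-binding transcription factor made from Tcf3. The E12 was either wild-type or a mutant that the series title describes as resistant to calmodulin, a calcium sensor downstream of the antigen receptor. Each form was measured untreated and after 3 h with F(ab')2 fragments of a goat antibody to mouse IgM (anti-IgM, 2.5 μg/ml), which crosslinks the antigen receptor, in sorted GFP-positive cells. The 4 groups held 3 arrays each. No group carried an empty virus, so each form of E12 was set only against the other form. The labels do not say whether the 3 arrays of a group came from separate mice or cultures, so p-values measure only the spread between arrays, which may be technical.

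Levels are log2(intensity + 50) after all 12 arrays were quantile-normalized together, and each gene is represented by its brightest probe. A change is a difference of group means on this scale with the standard error (SE) of a limma fit, and it understates the change of dim probes. A gene is said to have passed where its p-value, adjusted over the 10050 genes, was under 0.05. The arrays of the 2 E12 forms appear to have been normalized separately by the authors, judged from array medians of 6.93 or 6.94 intensity units for wild-type and 6.40 for mutant E12. For any gene, a difference between the forms therefore cannot be told apart from that step.

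Most members were detected throughout. Of the 45 genes, 37 lay above the detection limit on all 12 arrays. The other 8 did so on 3 (Rab20), 5 (Rab33a), 6 (Rab2b), 8 (Rab6b and Rab34), 9 (Rab4a) or 10 arrays (Rab11a and Rab39b). A further 14 genes were on the array but not detected: Rab3b, Rab3c, Rab7b, Rab9b, Rab15, Rab17, Rab23, Rab27b, Rab36, Rab37, Rab38, Rab40b, Rab42 and Rab44. The median SD of a member within a group was 0.21 log2 units for untreated wild-type E12, 0.08 with anti-IgM, 0.18 for untreated mutant E12 and 0.16 with anti-IgM.

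Some arrays stood apart or carried markers of other cells. The first untreated wild-type E12 array was the highest of all 12 for 13 of the 45 Rab genes, among them Rab2a (10.40, against 9.40 and 9.46 on the other 2 arrays of its group) and Rab43 (9.61 against 8.43 and 8.60). On that array the lysozyme gene Lyz1 read 10.45, against 8.59 and 8.62, and the macrophage lysozyme gene Lyz2 read 8.82, against 7.29 and 7.13. Of 11 myeloid markers on the array 7 were detected, with Csf1r, Itgam, S100a9 and Mpo not detected, and their summed intensity was 1017 to 2842 in untreated wild-type E12 cells, 833 to 1204 with anti-IgM, and 571 to 737 and 535 to 831 in the mutant groups. After anti-IgM with wild-type E12 2 of these were lower and 1 higher. With mutant E12 4 were lower and 0 higher in untreated cells, and 4 lower and 1 higher in treated cells. Mpeg1 read 6.75 to 7.13 in treated wild-type and 8.60 to 9.32 in treated mutant E12 cells. Within untreated wild-type E12 all of these but Fcer1g (7.75, against 7.87 and 7.97) were highest on the first array. Of 8 B cell markers 7 were detected, all but Pax5. They summed to 73328 to 95494 in untreated wild-type E12 cells, 68933 to 72458 with anti-IgM, and 62676 to 67356 and 58243 to 61938 in the mutant groups. After anti-IgM with wild-type E12 4 were lower and 0 higher. With mutant E12 5 were lower and 1 higher in untreated cells, and 3 lower and 0 higher in treated cells. Of 9 T cell markers, Cd3d, Cd3e, Cd3g, Cd4, Cd8a and Cd5 were not detected. The other 3, Cd8b1, Thy1 and Cd2, summed to 1208 to 1881 in untreated wild-type and 2484 to 2723 in untreated mutant E12 cells, and all 3 were higher with mutant E12 in treated cells. The 6 plasma cell markers summed to 29744 to 32569 in untreated wild-type and 55720 to 68558 in untreated mutant E12 cells. Tcf3 read 10.34 to 11.17 on the wild-type and 11.27 to 12.93 on the mutant E12 arrays, and was higher with mutant E12 by 1.68 in untreated and 1.55 in treated cells (adjusted p = 0.00153 and 0.00249). The part of these differences in the Rab results was not tested. In sorted but mixed cells, fewer cells of a type and less RNA per cell cannot be told apart.

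**Figure D1:**
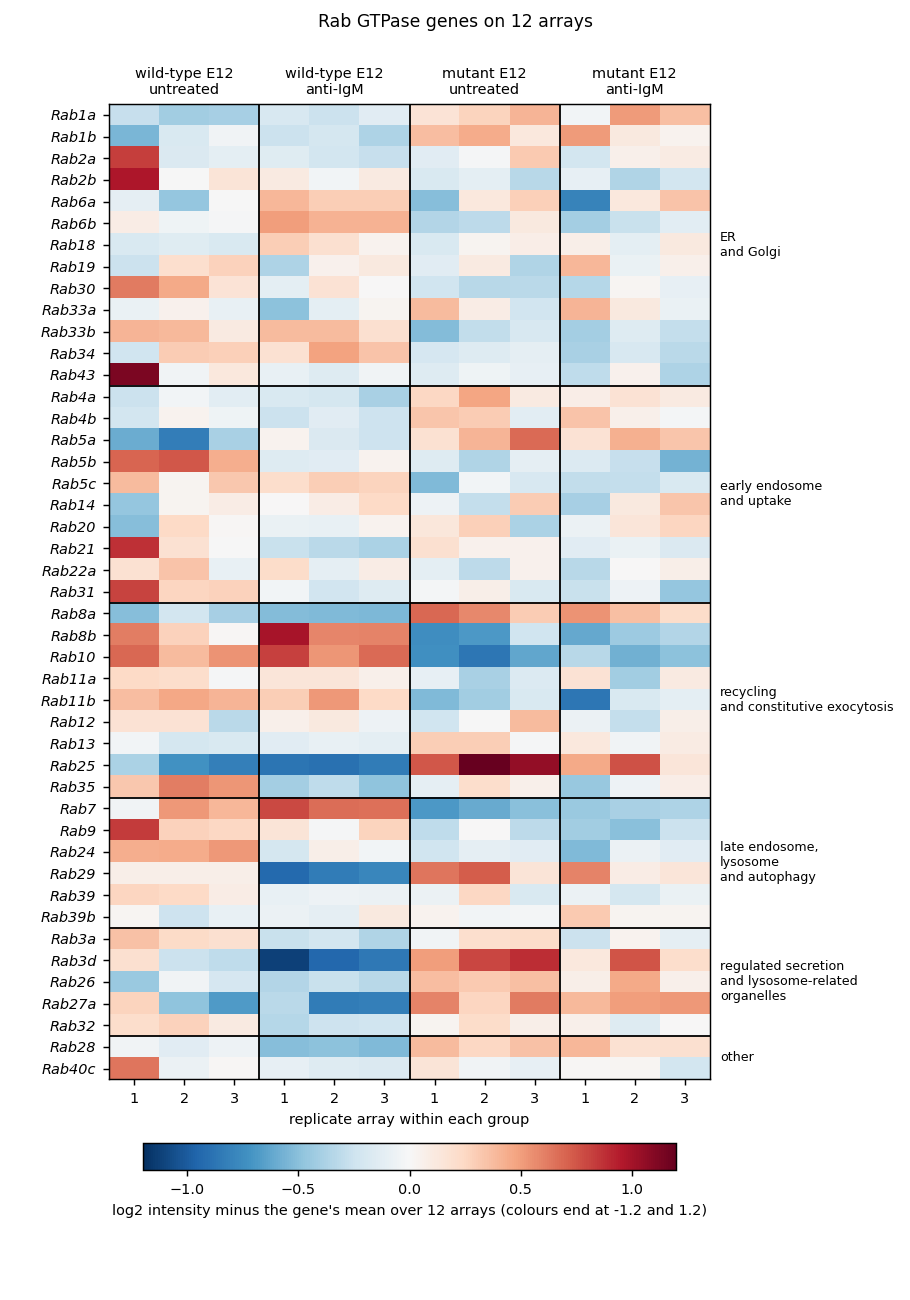
Each row is 1 of the 45 Rab genes, grouped by role, and each column 1 of the 12 arrays, with colour giving the log2 intensity minus the gene's mean over the arrays (red higher, blue lower). Rab25, Rab8a and Rab3d are red in the mutant E12 columns, Rab10 and Rab8b are blue there, and Rab29, Rab3d and Rab28 are bluest in the 3 wild-type E12 arrays with anti-IgM; the first untreated wild-type E12 array stands out for Rab43, Rab2a and Rab2b.

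The first question was how the Rab genes responded to the antigen receptor in cells with wild-type E12. Rab29, Rab35, Rab3d and Rab5b, which serve the lysosomal system, fast recycling, granule exocytosis and early endosomes, fell the most, by 0.71 to 0.92 log2 units. Rab5a, Rab6b, Rab7 and Rab18, of early endosomes, Golgi, late endosomes and lipid droplets, rose by 0.35 to 0.48. In all, 15 of the 45 genes (33.3%) passed, against 31.3% of all genes. Of these, 4 were higher (8.89%, against 15.1% of all genes) and 11 lower (24.4%, against 16.2%). The median change was -0.14 for the members and -0.02 for all genes. For 21 members (46.7%, against 50.3% of all genes) the treated values all lay on 1 side of the untreated ones.

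With mutant E12, none of the 45 Rab genes passed after anti-IgM in the limma fit, where 0.229% of all genes did. At an unadjusted p under 0.05 there were 2 (4.44%, against 9.17% of all genes), Rab25 (-0.60 ± 0.18, adjusted p = 0.22) and Rab10 (0.28 ± 0.13, adjusted p = 0.544). For Rab7, Rab10 and Rab21 (3 members, 6.67%, against 12.1% of all genes) the treated values all lay on 1 side of the untreated ones. With array weights 2 passed, Rab25 (-0.87, adjusted p = 0.00476) and Rab29 (-0.47, adjusted p = 0.0338), which is 4.44% against 7.13% of all genes under that setting. The median change of the members was -0.08. Over all 45 members, 33 (73.3%) had the larger change with wild-type E12, as did 75.1% of all genes.

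The test of whether the response differed between the forms is the difference of the responses, mutant minus wild-type. None of the 45 Rab genes passed it in the limma fit, where 6.95% of all genes did, and 9 had an unadjusted p under 0.05 (20%, against 21.1% of all genes). These were Rab35 (0.69 ± 0.21, 95% interval 0.24 to 1.14, adjusted p = 0.0655), Rab29 (0.70 ± 0.23, 0.21 to 1.18, adjusted p = 0.0867), Rab5b (0.58 ± 0.19, adjusted p = 0.0971), Rab30, Rab6b, Rab5a, Rab24, Rab28 and Rab32. When replicate numbers were blocked separately in the 2 forms, Rab35 passed (adjusted p = 0.0162), as did Rab29 (0.0226), Rab6a (-0.60, 0.0369) and Rab6b (-0.53, 0.0489), 8.89% of the members against 14% of all genes. Rab35 also passed without the first untreated wild-type E12 array (0.77, adjusted p = 0.0426) and without the first mutant E12 array with anti-IgM (0.84, adjusted p = 0.0156), and in the latter case Rab24 did too (0.59, adjusted p = 0.0482).

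The last question was how the Rab genes differed between the 2 forms of E12. Rab25 and Rab8a were among the genes highest with mutant E12 in both states, and Rab10 and Rab8b among the lowest. In untreated cells 25 of the 45 passed (55.6%, against 42.6% of all genes), 12 higher (26.7%, against 20.4%) and 13 lower (28.9%, against 22.2%) with mutant E12, and the groups did not overlap for 26 (57.8%, against 49.3%). With anti-IgM 20 passed (44.4%, against 43.5% of all genes), 11 higher (24.4%, against 21.3%) and 9 lower (20%, against 22.2%), and the groups did not overlap for 26 (57.8%, against 58.1%). Of the 27 genes that passed in either state, 18 passed in both, 11 of them higher and 7 lower with mutant E12. These are 72% of the members that passed in untreated and 90% of those that passed in treated cells, against 67.1% and 65.8% for all genes. The split depended on scaling: with the deposited values used as given, which move the median of all genes from 0.01 to 0.13 in untreated and from -0.01 to 0.11 in treated cells, it was 14 higher and 7 lower in untreated and 15 higher and 7 lower in treated cells. With array medians set equal it was 11 and 9, and 11 and 7. The excess over all genes in untreated cells depended on the processing too. There 46.7% of the members passed with the deposited values (48.3% of all genes) and 44.4% with equal array medians (48.4%). With the mean of each gene's probes it was 44.4%, against 41.8% of all genes. In treated cells the deposited values gave 48.9%, against 46.9%, and equal medians 40%, against 47.7%.

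**Figure D2:**
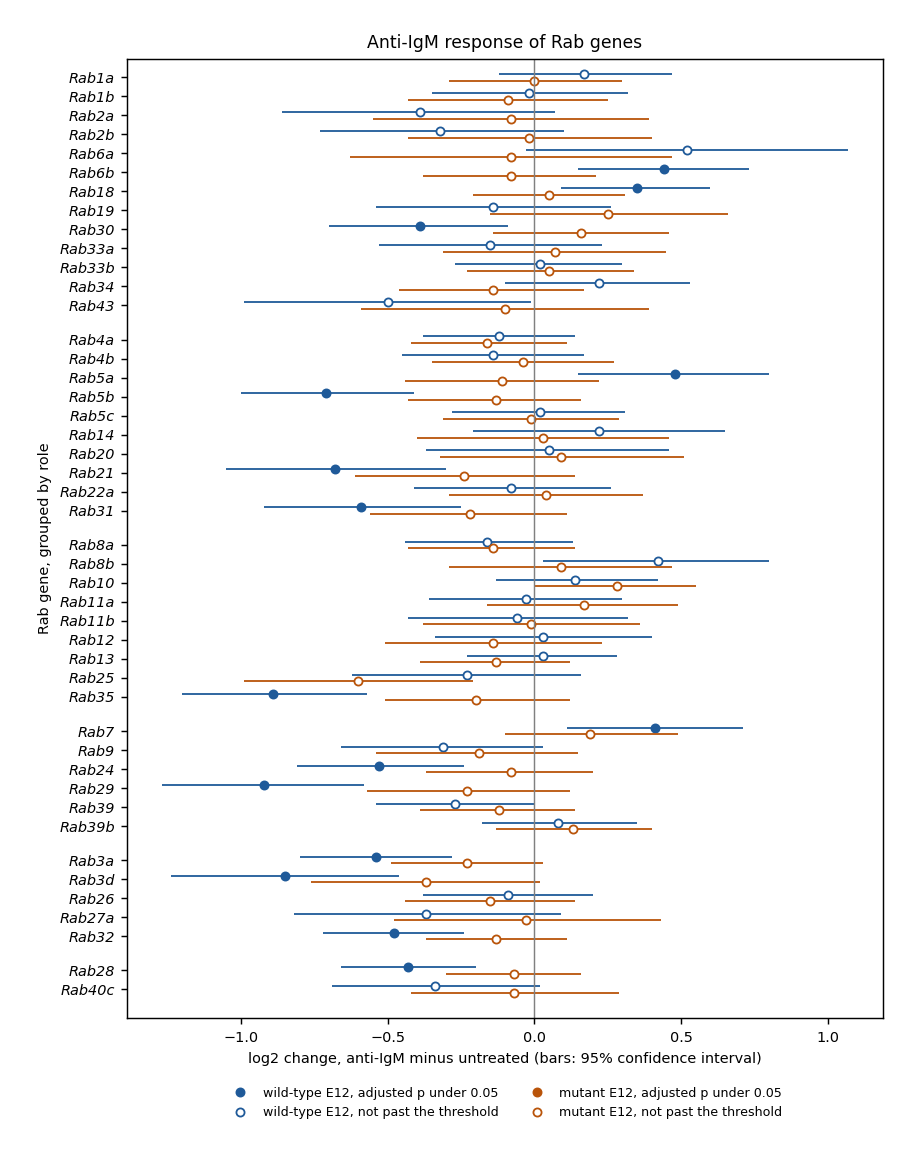
Points give the log2 change after anti-IgM of each Rab gene with wild-type E12 and with mutant E12, with bars for the 95% confidence interval and filled points for adjusted p under 0.05. Filled points occur only for wild-type E12, from -0.92 (Rab29) to 0.48 (Rab5a), and the mutant E12 points lie between -0.60 (Rab25) and 0.28 (Rab10).

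E12 binds DNA at E-boxes, so promoter windows of 6 members are shown, with E-boxes in capitals. They were chosen after their values were seen: Rab25, Rab3d, Rab27a and Rab5a were higher with mutant E12, and Rab29 and Rab35 fell the most after anti-IgM with wild-type E12. Sequences are RefSeq promoter windows of build GRCm38.p6, written 5′ to 3′ on the strand of the gene, from 250 bases before the annotated start. Capitals mark CANNTG, the general E-box.
Rab25, chr3:88548230-88548529, minus strand: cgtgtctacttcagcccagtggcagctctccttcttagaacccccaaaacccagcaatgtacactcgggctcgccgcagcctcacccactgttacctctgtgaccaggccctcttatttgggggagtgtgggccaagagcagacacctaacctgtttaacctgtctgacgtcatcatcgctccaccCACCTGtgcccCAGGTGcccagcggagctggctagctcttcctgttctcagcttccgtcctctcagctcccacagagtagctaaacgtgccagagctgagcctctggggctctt
Rab3d, chr9:21918134-21918433, minus strand: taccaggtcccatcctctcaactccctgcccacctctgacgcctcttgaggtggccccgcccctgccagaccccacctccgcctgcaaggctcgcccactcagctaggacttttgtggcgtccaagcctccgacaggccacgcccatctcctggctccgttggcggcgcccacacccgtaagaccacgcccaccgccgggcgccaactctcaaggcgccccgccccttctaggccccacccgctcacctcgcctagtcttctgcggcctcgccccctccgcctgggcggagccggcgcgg
Rab27a, chr9:73044560-73044859, plus strand: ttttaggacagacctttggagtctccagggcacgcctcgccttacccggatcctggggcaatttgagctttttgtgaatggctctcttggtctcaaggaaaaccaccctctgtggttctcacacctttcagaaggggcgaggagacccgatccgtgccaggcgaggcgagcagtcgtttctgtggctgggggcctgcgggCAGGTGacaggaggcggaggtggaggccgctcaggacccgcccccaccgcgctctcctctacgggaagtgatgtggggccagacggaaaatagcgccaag
Rab5a, chr17:53478984-53479283, plus strand: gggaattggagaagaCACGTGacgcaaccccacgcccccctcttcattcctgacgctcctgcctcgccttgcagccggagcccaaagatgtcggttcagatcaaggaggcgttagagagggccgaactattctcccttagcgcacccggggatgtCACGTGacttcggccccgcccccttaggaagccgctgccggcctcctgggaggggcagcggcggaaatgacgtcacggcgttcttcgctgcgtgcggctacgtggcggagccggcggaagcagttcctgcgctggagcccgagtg
Rab29, chr1:131867027-131867326, plus strand: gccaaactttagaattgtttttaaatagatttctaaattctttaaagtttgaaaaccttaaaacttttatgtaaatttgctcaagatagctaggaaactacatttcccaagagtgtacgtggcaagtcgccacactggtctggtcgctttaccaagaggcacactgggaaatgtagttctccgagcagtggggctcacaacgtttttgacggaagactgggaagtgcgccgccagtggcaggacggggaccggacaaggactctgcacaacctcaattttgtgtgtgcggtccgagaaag
Rab35, chr5:115631737-115632036, plus strand: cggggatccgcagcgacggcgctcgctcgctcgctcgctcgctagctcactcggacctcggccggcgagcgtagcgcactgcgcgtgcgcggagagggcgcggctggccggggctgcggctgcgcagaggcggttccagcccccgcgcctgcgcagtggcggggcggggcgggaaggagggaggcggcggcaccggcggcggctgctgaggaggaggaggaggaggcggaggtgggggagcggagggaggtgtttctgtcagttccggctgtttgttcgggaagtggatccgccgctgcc
The Rab25 window holds 2 copies of CAGGTG, an E-box that E proteins are known to prefer, at -64 and -53 from the start and on opposite strands. The Rab27a window shown, the first of 2, holds 1 copy at -50. In the Rab5a window both E-boxes have the palindromic form CACGTG, and the windows of Rab3d, Rab29 and Rab35 hold no E-box. Both forms are special cases of the general one, and all 3 were searched on both strands. A window was found for 40 of the 45 members, not for Rab2a, Rab4a, Rab18, Rab26 and Rab30. The 40 had 48 windows, of which 14.6% held the form preferred by E proteins, 10.4% the palindromic form and 62.5% any E-box. The same shares of all 32851 windows of that length were 20.2%, 7.15% and 72.3%. Any E-box was present for 55.6% of 9 members higher with mutant E12 in both states, 57.1% of 7 lower in both, 70% of 10 that fell after anti-IgM and 100% of 3 that rose. The form preferred by E proteins was present for 22.2%, 28.6%, 10% and 0% of these, and for 17.5% of the 40. The windows of Rab8a, Rab8b and Rab10, with large form differences but not shown, did not hold that form. A match only describes the letters of the window.

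Of 10 members that serve early endosomes and uptake, 1 rose and 3 fell after anti-IgM with wild-type E12 (15.1% and 16.2% of all genes), and their median change was -0.10. With their brightest probes the 3 Rab5 isoforms, which drive fusion of early endosomes, went different ways. Rab5a read 8.69, 8.45 and 8.89 in untreated and 9.32, 9.11 and 9.03 in treated wild-type E12 cells. All treated arrays lay above all untreated ones, and the rise was 0.48 ± 0.15 (adjusted p = 0.0282). Mutant E12 arrays read 9.46, 9.69 and 9.96 untreated and 9.45, 9.71 and 9.61 treated, above every wild-type array. Rab5a was thus 1.02 ± 0.15 higher with mutant E12 in untreated (adjusted p = 0.000123) and 0.44 ± 0.15 in treated cells (adjusted p = 0.0321). The rise was lost without the second untreated (adjusted p = 0.125), the first treated (0.121) or the second treated wild-type E12 array (0.0614). In treated cells the form difference was lost without the second or the third treated array of either form (adjusted p = 0.0714 to 0.117). With the mean of the gene's probes neither the rise (0.16, adjusted p = 0.314) nor the treated form difference (0.19, adjusted p = 0.182) passed. The untreated form difference was then 0.41 (adjusted p = 0.00865). The dimmest of the Rab5a probes gave a response of -0.18 and an untreated form difference of -0.36.

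Rab5b had 8.13, 8.18 and 7.87 in untreated wild-type E12 cells, 7.28, 7.30 and 7.48 with anti-IgM, 7.28, 7.07 and 7.33 in untreated mutant cells and 7.27, 7.16 and 6.87 with anti-IgM. The untreated wild-type arrays stood above the other 9. Anti-IgM lowered it by 0.71 ± 0.14 with wild-type E12 (adjusted p = 0.00138) and the change with mutant E12 was -0.13 (adjusted p = 0.902). It was lower with mutant E12 by 0.83 ± 0.14 in untreated cells (adjusted p = 0.000283), and in treated cells the difference was -0.25 ± 0.14 (adjusted p = 0.154). Rab5c read 10.74 to 11.09 on the wild-type and 10.18 to 10.68 on the mutant E12 arrays. Its form differences of -0.49 ± 0.14 and -0.51 ± 0.14 passed, but with the deposited values as given they were 0.18 and 0.15 and with array medians set equal 0.09 and 0.03, so their direction rests on the scaling. In untreated cells the call was also lost without the first untreated mutant E12 array (-0.35, adjusted p = 0.0597).

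Rab21, of integrin uptake, read 9.16, 8.47 and 8.28 in untreated and 8.02, 7.96 and 7.90 in treated wild-type E12 cells. The groups did not overlap, and it fell by 0.68 ± 0.18 (adjusted p = 0.00878). Without the first untreated wild-type E12 array, which also had the highest Lyz1, the fall was 0.42 (adjusted p = 0.0158). Rab31, of traffic between the Golgi and endosomes, had 9.81, 9.26 and 9.28 untreated and 8.97, 8.77 and 8.85 treated. It fell by 0.59 ± 0.16 (adjusted p = 0.0107), and the change was -0.41 without that array. With mutant E12 the same genes read 8.48, 8.34 and 8.34 (Rab21) and 8.98, 9.07 and 8.82 (Rab31) untreated, and their changes after anti-IgM were -0.24 and -0.22 (adjusted p = 0.799 and 0.785). Rab31 was lower with mutant E12 in untreated cells by 0.49 ± 0.16 (adjusted p = 0.0212), a call lost without the first untreated wild-type (-0.31, adjusted p = 0.0912) or the last untreated mutant array (-0.42, adjusted p = 0.0627). It was also lost with the deposited values as given (-0.11) and with equal array medians (-0.20).

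Rab4a, of rapid recycling from early endosomes, was dim. It read 5.92, 6.15 and 6.05 in untreated and 6.00, 5.97 and 5.79 in treated wild-type E12 cells, with 2 and 1 of 3 arrays above the limit, and 6.43, 6.65 and 6.29, then 6.26, 6.35 and 6.29, with mutant E12. It was higher with the mutant by 0.42 ± 0.12 and 0.38 ± 0.12 (adjusted p = 0.014 and 0.0219). The first call was lost without the second untreated mutant array (0.32, adjusted p = 0.0758), and the second without the third treated wild-type (0.31, adjusted p = 0.101) or the second treated mutant array (0.36, adjusted p = 0.0624). Both were lost with equal array medians (0.28 and 0.23). Rab4b, Rab14, Rab20 and Rab22a, which serve recycling, endosome to Golgi traffic, phagosomes and early endosomes, did not pass in any comparison with their brightest probe. With the deposited values as given, Rab14 was 0.72 and Rab4b 0.42 higher in untreated mutant E12 cells (adjusted p = 0.00895 and 0.0301).

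Of 9 members of recycling and constitutive exocytosis only Rab35, of the fast return of receptors to the surface, passed after anti-IgM with wild-type E12, where 31.3% of all genes did. It read 11.28, 11.57 and 11.49 in untreated and 10.55, 10.65 and 10.48 in treated wild-type E12 cells, and 10.85, 11.17 and 11.02, then 10.50, 10.90 and 11.04, with mutant E12. The treated wild-type arrays all lay below the untreated ones, and the mutant groups overlapped. The fall was 0.89 ± 0.15 (adjusted p = 0.000433), and the change with mutant E12 was -0.20 ± 0.15 (adjusted p = 0.801). In untreated cells Rab35 was 0.43 ± 0.15 lower with mutant E12 (adjusted p = 0.0284), but 0.30 higher with the deposited values as given and 0.20 higher with equal array medians. That call was lost without the second (-0.37, adjusted p = 0.101) or the third untreated wild-type array (-0.42, adjusted p = 0.0711) or the first untreated mutant array (-0.36, adjusted p = 0.108). In treated cells the difference was 0.25 ± 0.15 (adjusted p = 0.185), and it passed at 0.91 with the deposited values as given and at 0.79 with equal array medians.

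The same group held the largest untreated form differences in each direction, those of Rab25 and Rab10. Rab25, a relative of Rab11 known from recycling in epithelial cells, read 6.64, 6.29 and 6.20 in untreated and 6.14, 6.12 and 6.18 in treated wild-type E12 cells. With mutant E12 it read 7.76, 8.40 and 8.07 untreated and 7.47, 7.78 and 7.16 treated, above every wild-type array. It was higher with the mutant by 1.70 ± 0.18 (adjusted p = 7.54e-06) and 1.33 ± 0.18 (adjusted p = 5.3e-05), and its second probe gave 0.80 (adjusted p = 0.000806 over all probes) in untreated cells. The untreated and treated mutant arrays overlapped.

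Rab8a and Rab8b, close isoforms that carry cargo from the Golgi to the surface, differed in opposite directions. Rab8a had 11.31, 11.60 and 11.42 in untreated and 11.30, 11.29 and 11.28 in treated wild-type E12 cells, against 12.51, 12.39 and 12.12, then 12.36, 12.18 and 12.04, with mutant E12. Rab8b had 11.47, 11.13 and 10.87, then 11.84, 11.44 and 11.45, with wild-type E12, against 10.11, 10.17 and 10.62, then 10.24, 10.42 and 10.50, with mutant E12. For both genes the mutant and wild-type arrays did not overlap. Rab8a was higher with mutant E12 by 0.89 ± 0.13 and 0.91 ± 0.13 (adjusted p = 0.000119 and 9.19e-05). Rab8b was lower by 0.86 ± 0.18 and 1.19 ± 0.18 (adjusted p = 0.00149 and 0.000111), but in untreated cells it did not pass with the deposited values as given (-0.20, adjusted p = 0.381) or with equal array medians (-0.29, adjusted p = 0.193). The second probes went the same way in untreated cells (0.97 and -0.58). The change of Rab8b after anti-IgM with wild-type E12, 0.42 ± 0.18, passed only with the replicate block (adjusted p = 0.0139), with array weights (0.00261) or without the first untreated array (0.57, adjusted p = 0.0272).

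Rab10, which serves exocytosis of surface transporters, read 8.13, 7.82 and 7.98 in untreated and 8.26, 7.97 and 8.12 in treated wild-type E12 cells, and 6.71, 6.58 and 6.82, then 7.11, 6.87 and 6.95, with mutant E12. The mutant arrays lay below all wild-type ones. It was lower with the mutant by 1.27 ± 0.13 (adjusted p = 4.25e-06) and 1.14 ± 0.13 (adjusted p = 9.81e-06). Its dimmer probe gave -0.01 in untreated cells and, after anti-IgM with wild-type E12, 0.58 (adjusted p = 0.014 over all probes), where the brighter probe gave 0.14. Rab11b, of slow recycling, read 12.37 to 12.65 on the wild-type and 11.26 to 12.01 on the mutant E12 arrays. Its differences of -0.79 ± 0.17 and -0.74 ± 0.17 passed, but they were 0.13 and 0.15 with the deposited values as given and 0.03 and 0.03 with equal array medians. Rab13, of epithelial junctions, was 0.34 ± 0.12 higher in untreated mutant E12 cells (adjusted p = 0.0339). It did not pass with the deposited values as given (adjusted p = 0.0612), with equal medians (0.204) or without any 1 of 4 arrays, the second or the third untreated wild-type or the first or second untreated mutant (0.0848 to 0.12). Rab11a and Rab12, of recycling endosomes, did not pass in any comparison, although Rab11a was at -0.36 in untreated cells (adjusted p = 0.0712) and passed there with equal array medians (-0.50) or array weights (-0.47).

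Of 6 members of late endosomes, lysosomes and autophagy, 1 rose and 2 fell after anti-IgM with wild-type E12 (15.1% and 16.2% of all genes). Rab29, which acts at the Golgi and stressed lysosomes with the kinase Lrrk2, read 8.37 on each of the 3 untreated arrays and 7.36, 7.46 and 7.51 on the treated ones. With mutant E12 it read 8.94, 9.02 and 8.45 untreated and 8.89, 8.39 and 8.44 treated. The treated wild-type arrays lay below the other 9. Rab29 fell by 0.92 ± 0.16 with wild-type E12 (adjusted p = 0.000608), and the change with mutant E12 was -0.23 ± 0.16 (adjusted p = 0.785). It was 1.13 ± 0.16 higher with mutant E12 in treated cells (adjusted p = 7.23e-05). In untreated cells the 0.43 ± 0.16 difference (adjusted p = 0.0423) was lost without any 1 of 8 arrays, that is all 6 wild-type arrays and the first or second untreated mutant array (0.33 to 0.44, adjusted p = 0.0537 to 0.173).

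Rab24, an unusual Rab linked to autophagy, had 10.31, 10.32 and 10.39 in untreated and 9.66, 9.94 and 9.84 in treated wild-type E12 cells. Mutant E12 arrays had 9.63, 9.77 and 9.74, then 9.34, 9.80 and 9.74, so that the untreated wild-type arrays stood above the rest. It fell by 0.53 ± 0.13 with wild-type E12 (adjusted p = 0.00784). In untreated cells it was 0.63 ± 0.13 lower with the mutant (adjusted p = 0.00175), but the value was -0.08 (adjusted p = 0.654) with the deposited values as given and -0.18 (adjusted p = 0.306) with equal array medians. Its other 2 probes gave responses of -0.15 and 0.18.

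Rab7, which takes late endosomes to lysosomes, gave results that depended on the probe. The brightest read 10.83, 11.39 and 11.27 in untreated and 11.66, 11.54 and 11.53 in treated wild-type E12 cells, and 10.18, 10.26 and 10.37, then 10.42, 10.48 and 10.50, with mutant E12. Treated arrays lay above untreated ones within each form, and all mutant arrays lay below all wild-type ones. With this probe Rab7 rose by 0.41 ± 0.14 with wild-type E12 (adjusted p = 0.0355) and differed between the forms by -0.89 ± 0.14 and -1.11 ± 0.14, lower with mutant E12 (adjusted p = 0.000166 and 2.33e-05). Another pair of probes gave larger rises, 1.08 ± 0.19 and 0.86 ± 0.16 (adjusted p = 0.000944 and 0.00134 over all probes), but both were higher with mutant E12 in untreated cells, by 0.74 and 0.80 (adjusted p = 0.00751 and 0.00136). The dimmest, detected on 7 arrays, gave -0.05 and -0.01. In untreated cells the brightest probe did not pass with the deposited values as given (-0.24, adjusted p = 0.164) or with equal medians (-0.34, adjusted p = 0.0563), and the mean of the 4 probes was 0.16. Its rise was lost without the first untreated wild-type array (0.24, adjusted p = 0.136) or without any 1 treated wild-type array (0.37 to 0.43, adjusted p = 0.0724 to 0.121). With the deposited values as given, the rises of Rab5a (adjusted p = 0.0571), Rab7 (0.0709) and Rab18 (0.0586) did not pass.

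Rab9, of return from late endosomes to the Golgi, read 8.25, 7.69 and 7.66 in untreated and 7.57, 7.40 and 7.68 in treated wild-type E12 cells, and 7.11, 7.42 and 7.10, then 6.99, 6.91 and 7.15, with mutant E12. The mutant arrays lay below the wild-type ones in each state. It was lower with the mutant by 0.66 ± 0.16 and 0.54 ± 0.16 (adjusted p = 0.00466 and 0.0148), while its second probe was 0.35 higher in untreated cells (adjusted p = 0.036 over all probes). In treated cells the call was lost without the last treated wild-type (-0.47, adjusted p = 0.0649) or the second treated mutant array (-0.48, adjusted p = 0.0541). Rab39 and Rab39b, linked to endosomes and autophagy, did not pass in any comparison, although Rab39 passed in the wild-type response with array weights (-0.27, adjusted p = 0.0141) and between the untreated forms with equal array medians (-0.35, adjusted p = 0.0292).

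**Figure D3:**
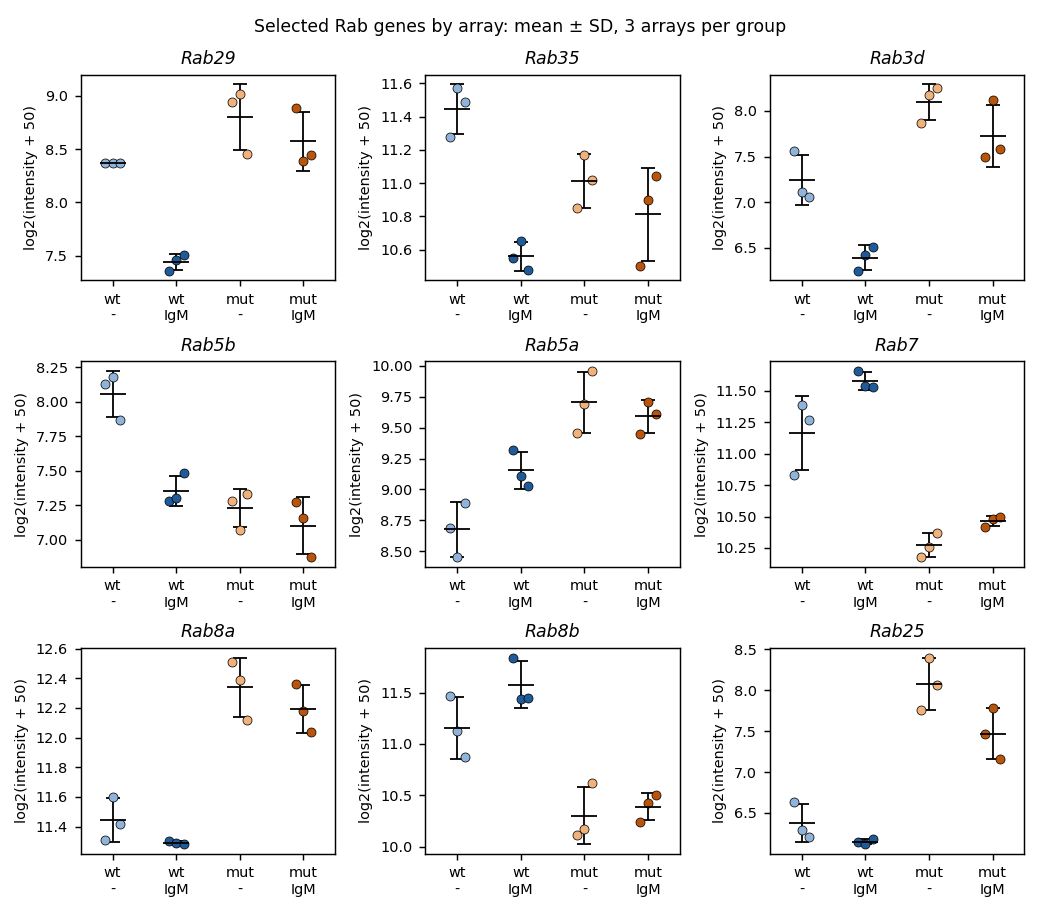
Log2 intensity of 9 Rab genes on each of the 12 arrays, with the mean ± SD of each group of 3 (wt, wild-type E12; mut, mutant E12; with or without anti-IgM). Rab29, Rab35, Rab3d and Rab5b are lower in treated than in untreated wild-type E12 cells with no overlap, and Rab25 and Rab8a lie higher, and Rab8b and the Rab7 probe shown lower, in all mutant E12 arrays.

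All 5 members of regulated secretion and lysosome-related organelles had changes below 0 after anti-IgM with wild-type E12, 3 of them past the threshold (16.2% of all genes fell), with a median of -0.48. With mutant E12 all 5 were below 0 too, with a median of -0.15 and 0 past the threshold. Over all 45 members, 29 were below 0 with wild-type and 31 with mutant E12. Rab3d, of secretory granule exocytosis, read 7.56, 7.11 and 7.06 in untreated and 6.25, 6.42 and 6.51 in treated wild-type E12 cells, and 7.87, 8.17 and 8.25, then 7.49, 8.12 and 7.58, with mutant E12. The treated wild-type arrays were the lowest of the 12. Rab3d fell by 0.85 ± 0.18 (adjusted p = 0.00247), against -0.37 ± 0.18 with mutant E12 (adjusted p = 0.569). It was higher with mutant E12 by 0.85 ± 0.18 and 1.33 ± 0.18 (adjusted p = 0.00169 and 4.72e-05). Of the 6 plasma cell markers, 5 were higher with mutant E12 in untreated and 4 in treated cells, the direction of Rab3d, Rab26 and Rab27a. In treated cells 1 was lower, Irf4 (10.37 to 11.17, against 11.79 to 12.34 with wild-type E12). Of 6 natural killer and cytotoxic cell markers, Ncr1, Klrb1c, Klrd1 and Gzmb were not detected. Prf1 read 12.52, 11.92 and 12.06 in untreated and 10.57, 10.61 and 10.99 in treated wild-type E12 cells. With mutant E12 Prf1 read 10.60, 10.01 and 9.52 untreated and 11.37, 9.77 and 9.58 treated. In untreated cells it was lower with mutant E12, where Rab3d was higher, and in treated cells the 2 forms overlapped. Nkg7 was detected on 7 of the 12 arrays. The part of these cells in the results was not tested.

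Rab3a, known from synaptic vesicle release, read 6.83, 6.71 and 6.67 in untreated and 6.21, 6.26 and 6.12 in treated wild-type E12 cells. The groups did not overlap, and it fell by 0.54 ± 0.12 (adjusted p = 0.00357). With mutant E12 its change was -0.23 ± 0.12 (adjusted p = 0.623). Rab32, of melanosomes and related organelles, fell by 0.48 ± 0.11 from 7.19 to 7.36 untreated to 6.74 to 6.84 treated (adjusted p = 0.00455). Neither gene passed between the forms with its brightest probe, and a dimmer probe of Rab3a was 0.44 higher with mutant E12 in treated cells (adjusted p = 0.0339 over all probes).

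Rab27a, which docks lytic and secretory granules at the surface, read 9.41, 8.66 and 8.46 in untreated and 8.82, 8.30 and 8.32 in treated wild-type E12 cells, and 9.74, 9.40 and 9.77, then 9.53, 9.64 and 9.66, with mutant E12. The first untreated wild-type array reached into the mutant range, and the treated groups did not overlap. It was higher with the mutant by 0.79 ± 0.21 and 1.13 ± 0.21 (adjusted p = 0.0081 and 0.000661). Its response with wild-type E12, -0.37 ± 0.21, passed only with the replicate block within each form (adjusted p = 0.0376). Rab26, of granule maturation, had 6.25, 6.66 and 6.50, then 6.35, 6.43 and 6.37, with wild-type E12 and 7.07, 7.01 and 7.06, then 6.77, 7.15 and 6.76, with mutant E12. All mutant arrays lay above all wild-type ones, by 0.57 ± 0.14 and 0.51 ± 0.14 on average (adjusted p = 0.00359 and 0.00728), and in treated cells the call was lost with equal array medians (0.35, adjusted p = 0.0505).

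Of 13 members of the endoplasmic reticulum and Golgi, 2 rose and 1 fell after anti-IgM with wild-type E12 (15.1% and 16.2% of all genes), and the median was -0.02. Rab6b, an isoform of the Golgi protein Rab6, had 6.34, 6.20 and 6.24 in untreated and 6.76, 6.67 and 6.67 in treated wild-type E12 cells, and 5.90, 5.94 and 6.37, then 5.85, 5.99 and 6.13, with mutant E12, where 1 of 3 arrays in each state was above the limit. It rose by 0.44 ± 0.14 with wild-type E12 (adjusted p = 0.0235) and was 0.71 ± 0.14 lower with mutant E12 in treated cells (adjusted p = 0.000722). Rab18, of lipid droplets and the endoplasmic reticulum, rose from 8.23, 8.27 and 8.23 to 8.71, 8.61 and 8.46, by 0.35 ± 0.12 (adjusted p = 0.0394). Both rises were lost without single arrays: for Rab6b any wild-type array but the first untreated one (0.41 to 0.46, adjusted p = 0.0554 to 0.0825), and for Rab18 any wild-type array but the third treated one (0.29 to 0.36, adjusted p = 0.0695 to 0.151). Rab18 also lost its call with replicate number as a block across the 4 groups (adjusted p = 0.0556). Without the first or the second treated wild-type array 10 Rab genes passed, all lower (22.2%, against 22.8% and 23.6% of all genes in either direction). Rab6a, the main Golgi isoform, changed by 0.52 ± 0.26, which did not pass (adjusted p = 0.143) although the groups did not overlap. It passed with the replicate block within each form (adjusted p = 0.00414), with array weights (0.64, adjusted p = 0.00104), with the wild-type arrays alone (0.0142) or without the first treated mutant array (0.0406). Rab43, of traffic from the endoplasmic reticulum to the Golgi, likewise passed only with that block (-0.50, adjusted p = 0.0308) or without the second untreated array (-0.72, adjusted p = 0.0329).

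Rab30, a Golgi Rab, fell by 0.39 ± 0.14 with wild-type E12 (adjusted p = 0.0475), from 7.37, 7.20 and 6.91 to 6.63, 6.92 and 6.75, with overlap. That call was lost without any 1 of 8 arrays, that is all but the third untreated of the wild-type arrays, the first or second untreated mutant and the last treated mutant array (-0.29 to -0.47, adjusted p = 0.0514 to 0.173). It was lost too with the deposited values as given (-0.36) and with equal array medians (-0.32), and with the replicate block across the 4 groups (adjusted p = 0.0543). Untreated mutant E12 arrays read 6.51, 6.41 and 6.42, below all untreated wild-type arrays, a difference of -0.71 ± 0.14 (adjusted p = 0.00108). Rab33b, a Golgi Rab that binds an autophagy factor, had 7.24 to 7.54 on the wild-type and 6.61 to 6.98 on the mutant E12 arrays. It was lower with the mutant by 0.63 ± 0.13 and 0.60 ± 0.13 (adjusted p = 0.00152 and 0.00215).

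Rab1a and Rab1b, which carry cargo from the endoplasmic reticulum to the Golgi, were both higher with mutant E12. Rab1a read 7.35, 7.21 and 7.23, then 7.44, 7.37 and 7.49, with wild-type E12 and 7.79, 7.90 and 8.04, then 7.60, 8.14 and 7.99, with mutant E12, with no overlap. Its differences were 0.65 ± 0.14 and 0.48 ± 0.14 (adjusted p = 0.00183 and 0.0123). Rab1b read 8.15, 8.51 and 8.65, then 8.44, 8.49 and 8.33, with wild-type E12 and 9.07, 9.14 and 8.82, then 9.21, 8.81 and 8.74, with mutant E12, again with no overlap. Its differences were 0.57 ± 0.16 and 0.50 ± 0.16 (adjusted p = 0.00918 and 0.0197). In treated cells Rab1a lost its call without the second treated mutant array (0.36, adjusted p = 0.0629), and Rab1b without the third treated wild-type (0.45, adjusted p = 0.0731) or the first treated mutant array (0.35, adjusted p = 0.0928). The dimmer probes of both genes did not pass in untreated cells.

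A pair of Golgi Rabs was bounded only from 1 side. Rab2b, of the early Golgi, was above the limit on no untreated mutant E12 array (mean 5.91) and on all 3 untreated wild-type arrays (7.09, 6.12 and 6.28, mean 6.50), so it was at least 1.37-fold higher with wild-type E12 (adjusted p = 0.0251). The bound is the wild-type mean over the lowest detected signal. It takes no account of the spread between arrays, and for Rab2b the first untreated wild-type array (7.09) raised that mean. That call was lost without the first untreated wild-type array (-0.29, adjusted p = 0.0841) or without the first or the third untreated mutant array (adjusted p = 0.0539 and 0.0641). Rab34, of Golgi and lysosome positioning, was above the limit on no treated mutant array (mean 5.91) and on all 3 treated wild-type arrays (6.39, 6.69 and 6.55, mean 6.54), at least 1.41-fold higher with wild-type E12 (adjusted p = 0.00289). Rab2b, Rab34 and Rab6b met the detection filter only through the wild-type arrays, where they were higher. Their calls between the forms, counted above among the lower genes, are therefore not independent of the filter. Rab2a, Rab19 and Rab33a did not pass in any comparison, although in treated cells Rab2a was 0.63 higher with mutant E12 with the deposited values as given (adjusted p = 0.0224) and the dimmer probe of Rab19 was 0.61 higher (adjusted p = 0.00981 over all probes).

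Rab28, known from photoreceptor cilia, was 1 of 2 members with other roles. It read 10.73, 10.63 and 10.71 in untreated and 10.26, 10.28 and 10.24 in treated wild-type E12 cells, and 11.15, 11.02 and 11.12, then 11.17, 10.95 and 10.96, with mutant E12. The 3 levels did not overlap, with the treated wild-type arrays lowest and the mutant arrays highest. Rab28 fell by 0.43 ± 0.11 with wild-type E12 (adjusted p = 0.0075), and it was higher with mutant E12 by 0.41 ± 0.11 and 0.77 ± 0.11 (adjusted p = 0.00749 and 6.66e-05). Its second probe also fell, by 0.53 ± 0.14 (adjusted p = 0.0127 over all probes), but was 0.20 lower, not higher, in untreated mutant E12 cells (adjusted p = 0.269). Rab40c, a member of a ubiquitin ligase, did not pass.

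**Figure D4:**
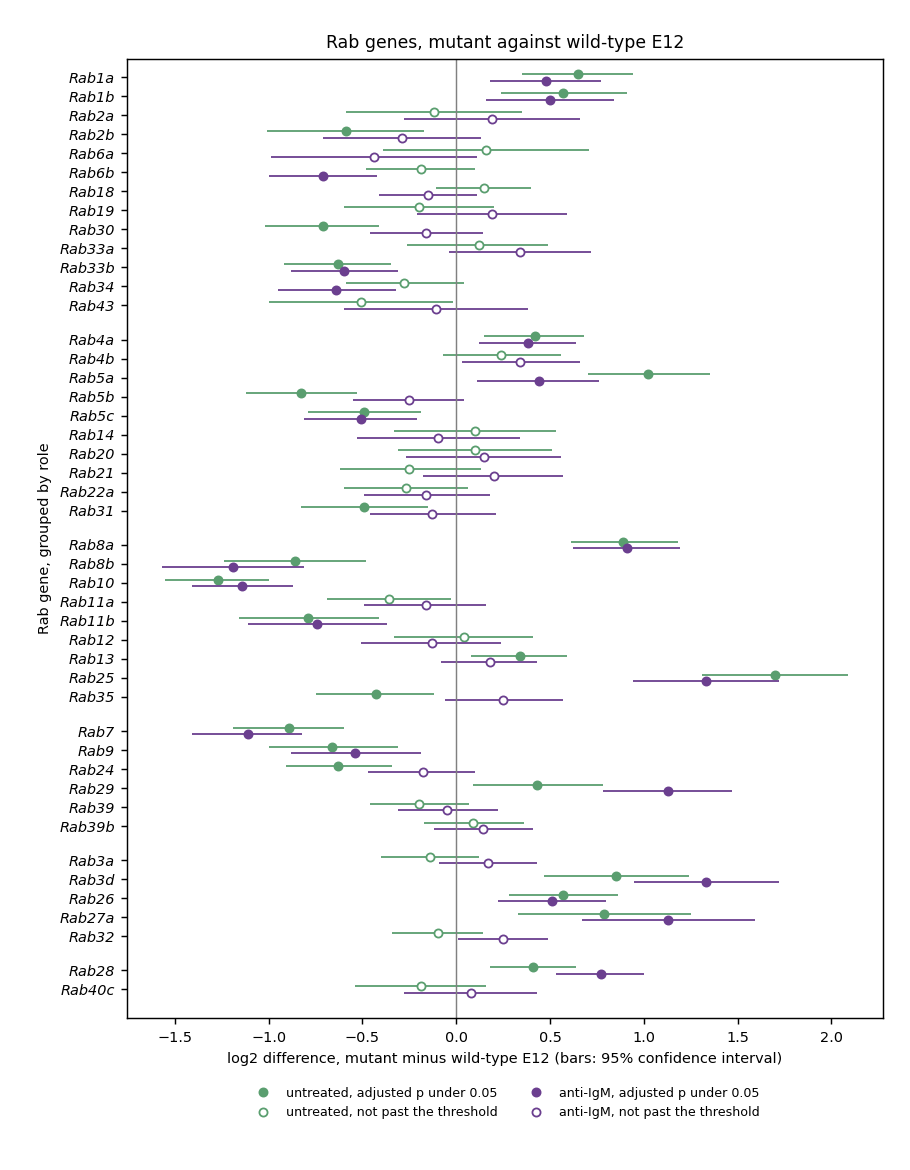
Difference of each Rab gene between mutant and wild-type E12 on the log2 scale, in untreated and in treated cells, with the 95% confidence interval and filled points for adjusted p under 0.05. Farthest to the right lie Rab25 in untreated cells (1.70) and Rab25 and Rab3d in treated cells (1.33 each), and farthest to the left Rab10 in untreated (-1.27) and Rab8b in treated cells (-1.19); Rab5c and Rab11b in both states and Rab35 in untreated cells lie to the left here but above 0 with the deposited values as given or with equal array medians.

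Several members had more than 1 detected probe, and the calls of a gene's probes often differed. The same shares over all genes with several probes were not computed, so this is not read as particular to Rab genes. Some probes were dim, such as those of Rab1b and Rab26 detected on 4 and 5 arrays. A call missing for such a probe need not be a disagreement. For 20 genes there were 2 to 4 probes. In untreated cells all probes of a gene passed in the same direction for 3 of the 20 between the forms, and for 3 (Rab5a, Rab7 and Rab9) probes passed in opposite directions. In treated cells this was so for 1 (Rab9). After anti-IgM with wild-type E12, 7 genes had some but not all probes past the threshold and 0 had opposite calls. Rab5a's 3 probes gave responses of 0.48, 0.17 and -0.18 and untreated form differences of 1.02, 0.56 and -0.36 (adjusted p = 0.000134, 0.0124 and 0.037 over all probes). Rab14, whose brightest probe did not pass, had a second probe that fell by 0.42 (adjusted p = 0.0213) and was 0.98 lower with mutant E12 in untreated cells (adjusted p = 3.64e-05). Which transcripts the probes of a gene read was not analysed here.

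**Figure D5:**
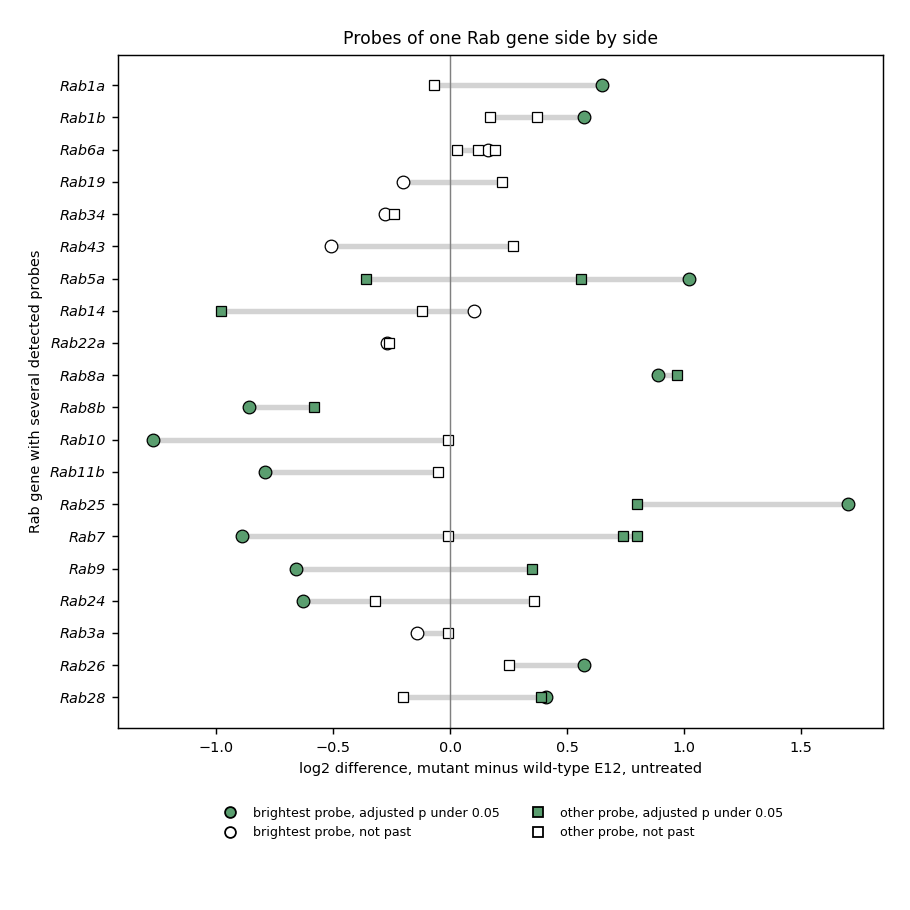
Each point is 1 detected probe of a Rab gene with several, placed by its log2 difference between mutant and wild-type E12 in untreated cells, with the brightest probe marked. The probes of Rab25, Rab8a and Rab8b lie on 1 side of 0, while those of Rab7 run from -0.89 to 0.80 and those of Rab5a from -0.36 to 1.02.

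The regulators and effectors of Rab proteins were read beside them, from 4 lists of 135 genes, of which 106 were tested. After anti-IgM with wild-type E12 11 rose and 17 fell (26.4%, against 31.3% of all genes). The GEFs Dennd3 and Dennd1c, the second of which acts on Rab35, fell, with changes of -1.47 ± 0.31 and -1.11 ± 0.18, as did Rin3, a GEF of Rab5, with -0.80 ± 0.16 (adjusted p = 0.00216, 0.000337 and 0.00176). Tbc1d10c, a GAP-domain protein that in lymphocytes also restrains calcineurin, fell by 1.46 ± 0.20 (adjusted p = 8.04e-05). Unc13d, the effector through which Rab27a primes granules, fell by 0.93 ± 0.12 (adjusted p = 4.63e-05), while Rilpl2, an effector of Rab8 and Rab10, and Rab11fip4, an effector of Rab11, rose, with fitted changes of 1.03 ± 0.27 and 0.83 ± 0.16 (adjusted p = 0.00966 and 0.00105). Of the 6 tested genes of the membrane cycle, 2 rose and 0 fell, Rabif and the prenyltransferase subunit Rabggtb (0.70 ± 0.16 and 0.67 ± 0.15).

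With mutant E12 none of the 106 passed after anti-IgM in the limma fit, and the smallest adjusted p was that of the GEF Rabgef1 (0.61 ± 0.12, adjusted p = 0.0584). The difference of the responses passed for 6 (5.66%, against 6.95% of all genes). These were Dennd1c (1.00 ± 0.25, adjusted p = 0.0294), Rabgef1 (0.65 ± 0.18, 0.0366), Tbc1d10c (1.31 ± 0.28, 0.0127) and Unc13d (0.89 ± 0.17, 0.00718), more positive with mutant E12, and the GAP Sgsm3 (-0.59 ± 0.16, 0.0362) and Rab11fip4 (0.0205), more negative. Rab11fip4 was above the detection limit on 0 of the 6 mutant and 1 of the 3 untreated wild-type E12 arrays, so the size of its difference is not given. Between the forms 14 were higher and 32 lower in untreated cells (43.4%, against 42.6% of all genes) and 16 higher and 28 lower in treated cells (41.5%, against 43.5%). Rin3 was higher with mutant E12 by 1.44 ± 0.16 and 1.95 ± 0.16 and the TRAPP subunit Trappc6a by 1.71 ± 0.19 and 1.86 ± 0.19. Dennd1c was lower with mutant E12 in untreated cells (-1.78 ± 0.18, adjusted p = 4.33e-06). Eea1, the tether of Rab5 endosomes, was above the limit on no treated mutant array (mean 5.86) and averaged 7.07 in treated wild-type E12 cells, at least 2.04-fold higher (adjusted p = 9.03e-06). Eea1 and Rab11fip4 met the detection filter only through wild-type arrays, so their calls between the forms are not independent of it. For Rab11fip4, which needed the treated wild-type arrays, the same holds for its rise and its difference of responses. Of the membrane cycle genes, Rabac1, Rabggta, Gdi2 and Rabif were higher with mutant E12 in untreated cells, by 1.39, 1.13, 0.72 and 0.58.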

How the data were processed

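The submitters' bead array values of 12 arrays were used. They are background-subtracted intensity values on a linear scale, normalized by the authors, it appears from the deposited medians, separately for the 2 E12 forms. Software and method: not given in the sources used here. Another 12 columns, holding values before normalization, match no label and were not used. The 12 arrays were quantile-normalized together and log2(intensity + 50) was taken. A probe was detected where it exceeded, on at least 3 arrays, a limit set from the values below 0 at a p of 0.01 (12.9 intensity units with wild-type, 15.6 to 15.7 with mutant E12). Genes were named from the platform annotation, updated by gene identifier (0 Rab symbols changed), and the brightest probe was kept. Differences were tested with limma 3.58.1 in R 4.3.3 (lmFit and eBayes, 1 mean per group, two-sided, 8 residual and 6.25 prior degrees of freedom), with Benjamini-Hochberg adjustment over 10050 genes. The fit was checked on simulated data. The number of arrays limits precision.

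Members, role groups and lists were chosen with earlier results of these data known. Values per array are given for up to 8 members in each direction with the largest change past the threshold per comparison (the 2 smallest p where none passed) and for genes whose probes differ in call; regulators are named by up to 4 per list and comparison. Replicate numbers come from the sample titles. Deviations of same-numbered arrays from their group means correlated across genes at 0.29, 0.18 and 0.19 within wild-type E12. Arrays of different number correlated at -0.24 to 0.15, the second with the third at 0.15 and 0.12, so numbers may pair these arrays but this is not settled. The main fit is unpaired. The value with replicate block, within each form or across the 4 groups, is given beside a wild-type response where it changes a call. The alternatives tried were other offsets, filters, scalings, probe choices, array weights, blocks, subsets of groups and leaving out each array. The dimmest probe of each gene was added after the data were seen.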

Additional observations from a re-analysis of the deposited data

How the results depend on the processing

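The changes of sign came from the scaling of the arrays or the choice of probe, and their cause was not tested. Under the other settings 1394 of the member values tallied kept their direction and side of the threshold, 123 lost and 8 gained a call, and 22 changed sign. The tally holds the calls of the main fit and, where none passed, the 2 members with the smallest p. A value that had passed could not gain a call. Calls gained by other members, such as Rab6a and Rab8b in the wild-type response, are outside it. The form differences of Rab5c (0.18 untreated, 0.15 treated), Rab11b (0.13, 0.15) and Rab35 (0.30 untreated) changed sign with the deposited values as given, as they did with array medians set equal (Rab5c 0.09 and 0.03, Rab11b 0.03 and 0.03, Rab35 0.20). The mean of its probes turned Rab7 in untreated cells (0.16). With the dimmest detected probe, the wild-type response turned for Rab5a (-0.18), Rab7 (-0.05), Rab24 (0.18) and Rab28 (0.04), the untreated form difference for Rab1a (-0.07), Rab5a (-0.36), Rab9 (0.35) and Rab24 (0.36), and the treated one for Rab5a (-0.20), Rab7 (0.17) and Rab9 (0.49). The 0 Rab genes passing after anti-IgM with mutant E12 became 2 with array weights and 1 (Rab25) with the replicate block within each form, where 7.13% and 2.14% of all genes passed. The 0 passing the difference of responses became 6 with array weights, 1 with the replicate block across the 4 groups and 4 with the block within each form, where 23.2%, 7% and 14% of all genes passed, and ranged from 0 to 2 without single arrays. For the mutant response, the 0 of 106 regulators and effectors became 1 with equal array medians and 2 with the block within each form. Under these settings 0.507% and 2.14% of all genes passed. For the difference of responses, 6 became 3 with equal array medians and 12 with the block within each form. There 3.68% and 14% of all genes passed. With that block the wild-type response counted 19 Rab genes (6 higher, 13 lower), holding all 15, which is 42.2%, against 39.1% of all genes. Same-numbered mutant E12 arrays correlated at 0.61, -0.05 and 0.55, and arrays across forms at -0.28 to 0.07, so numbers were not taken to pair them. Without single arrays the Rab counts ran from 10 to 16 (wild-type response), 20 to 26 (untreated) and 16 to 21 (treated form difference). As shares these are 22.2% to 35.6%, 44.4% to 57.8% and 35.6% to 46.7% of the members. For all genes the shares ran from 22.8% to 33.5%, 33.7% to 44.6% and 35.6% to 47%. With the deposited values as given the wild-type response had 1 higher and 10 lower (24.4%, against 27.5% of all genes). Rab21, Rab29, Rab31, Rab32, Rab35, Rab3d and Rab5b kept their call in the wild-type response under all 25 settings, but each has a single detected probe, so the mean and dimmest probe could not change them. Dim probes limit Rab20, Rab33a and Rab2b, which were detected on few arrays.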
